A study of Mus musculus with 6 samples.

Results

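The mRNA of 10 early response genes was measured in 661W cells and compared after 24 h of light or darkness: Egr1, Egr2, Egr3, Ier2, Ier3, Ier5, Klf4, Klf6, Srf and Myc. They were chosen by gene symbol, and each of the 10 matched 1 line among the 24879 of the deposited table. Levels are in FPKM, a measure of fragments that is divided by the length of the transcript and by the size of the library. 661W is an immortalised mouse line that the labels describe as photosensitive cells. Light libraries (n = 3) came from cells lit for 24 h at 2000 ± 100 lux by a fluorescent lamp, cold white. Dark libraries (n = 3) came from cells that spent those 24 h in darkness. All 6 libraries were of the same line, in DMEM with fetal bovine serum, and no other agent or genotype is named. Whether replicates came from separate cultures is not stated in the labels. The p-values therefore measure only how these libraries spread, which may be technical.

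Early response genes are transcribed within minutes of a growth factor, a stress or a depolarising stimulus, from factors that the cell already holds. A main route runs from the kinase ERK to SRF, a transcription factor that binds the CArG box together with ETS-domain partners of the ternary complex. EGR proteins are zinc finger transcription factors that bind GC-rich sites and induce a corepressor of their own activity. KLF proteins are zinc finger factors of a related fold, the IER genes encode small regulators of several kinds, and MYC drives growth and ribosome production as a dimer with MAX. Messenger RNAs of this class usually decay fast, in many cases through AU-rich elements in the 3' untranslated region. A sample taken after a day of exposure therefore reports the level at harvest and not the first burst. Whether a level was sustained up to then was not tested.

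The promoter stretches below are shown because SRF and EGR factors are themselves among the genes measured and because Ier3 had the largest change. RefSeq promoter windows on GRCm38.p6, from 250 bases before to 50 after each transcription start, were matched by symbol for 6 of the 10 genes (Egr2, Ier3, Ier5, Klf4, Klf6 and Srf), and not for Egr1, Egr3, Ier2 and Myc. Capitals mark the CArG boxes of Srf (chr17:46556203-46556272, minus strand) and of Egr2 (chr10:67537759-67537828, plus strand), the EGR sites of Klf4 (chr4:55532636-55532705, minus strand) and the GC box of Ier3 (chr17:35821463-35821712, plus strand).
Srf: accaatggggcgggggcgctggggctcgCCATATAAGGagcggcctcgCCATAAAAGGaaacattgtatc
Egr2: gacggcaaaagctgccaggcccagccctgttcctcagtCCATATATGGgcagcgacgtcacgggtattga
Klf4: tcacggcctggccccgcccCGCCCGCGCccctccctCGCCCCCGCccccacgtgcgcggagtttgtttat
Ier3: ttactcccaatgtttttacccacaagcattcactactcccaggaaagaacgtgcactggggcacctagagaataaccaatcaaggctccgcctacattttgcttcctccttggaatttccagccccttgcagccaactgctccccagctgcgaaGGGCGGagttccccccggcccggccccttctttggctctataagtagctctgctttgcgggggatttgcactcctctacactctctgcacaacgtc
Each is printed 5' to 3' on the strand of the gene.

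Both strands of every window were searched. The CArG box was found in the windows of Srf, which has 2, and Egr2, as against 1.63% of all 32851 windows. Egr2 has 5 windows, and the box lies in 4 of them. The EGR site GCGNGGGCG had 2 matches in Klf4 and 1 in Srf (5.55% of all windows), and each of these matches overlaps a GC box. The GC box GGGCGG was present in all 6 genes (35.7% of windows) and the E box CACGTG, the sequence that MYC and MAX bind, in Egr2, Klf4 and Klf6 (7.15%). Neither the cAMP response element TGACGTCA (1.79%) nor the AP-1 site TGANTCA (7.81%) was found in any of the 6. A match describes letters in a window and is not evidence of binding.

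The FPKM of all lines summed to 411186 to 434372 per Dark library and to 459198 to 471471 per Light library. No read totals accompany the tables, so sequencing depth is unknown. Along the first principal component, with 78.5% of the variance, Dark 1 (-36.5) and Light 2 (31.7) lay at the ends. The fits, the counts of early, partner and target genes and the pair differences below were also computed without both. Marker counts, overlap of the groups, order by level and nearest profiles rest on all 6 libraries. Of 22 cone and rod markers 6 were listed at 0 in every library, among them Opn1mw, Arr3 and Pde6c, and Rom1 alone reached a mean of 1 FPKM. The summed photoreceptor markers stood at 5.31 to 8.06 FPKM in Dark and 7.33 to 8.35 in Light. Of 8 fibroblast and mesenchymal markers 5 were measured and all 5 were called lower in Light, as defined below, beside 16.4% of all genes. Their list summed to 756 to 873 FPKM in Dark and 368 to 400 in Light. Other lists moved as well. Of 4 Muller glia markers measured 2 were lower, of 2 neuron markers 1 was lower, and the 1 macrophage and microglia marker measured was higher. The part of any such shift in the changes below was not tested. In bulk RNA, fewer cells of a kind and less RNA per cell cannot be told apart.

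After 24 h of light, 661W cells held more mRNA of Ier3, Myc, Ier5 and Klf4 and less of Egr1. Ier3 rose 3.19-fold and Myc 1.59-fold, while Egr1 fell to 0.554 of its Dark level. Ier2, Klf6 and Srf were not called, and Egr2 and Egr3 were too low to be tested. A gene is said to be called, to rise or to fall where limma, fitted on log2(FPKM + 1) to the 11068 genes whose mean reached 1 FPKM, gave a Benjamini-Hochberg adjusted p under 0.05. Over all genes tested 35.6% were called, 19.2% higher and 16.4% lower, and among the 8 early genes tested 4 were called higher and 1 lower. The Light and Dark values did not overlap for 5 of the 8, beside 52.6% of all genes. Of these 5, 4 were higher in Light (28.2% of all genes) and 1 was lower (24.4%). Changes given as log2 are of FPKM + 1, so those of low genes are understated. The count of 4 higher fell to 2, Ier3 and Myc, without Dark 3, without Light 2 and without Light 3. It was also 2 without both Dark 1 and Light 2, and with every library scaled to the same FPKM total. Egr1 was called lower in each of these. The totals over all 11068 genes moved too, from 2128 higher and 1810 lower. Without Dark 3 they were 744 and 533, without Light 2 749 and 564, and without Light 3 693 and 535. Without both Dark 1 and Light 2 they were 785 and 642. With equal FPKM totals they were 1212 and 2902 (median -0.13). List counts from these fits, given below, stand beside these totals.

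**Figure D1:**
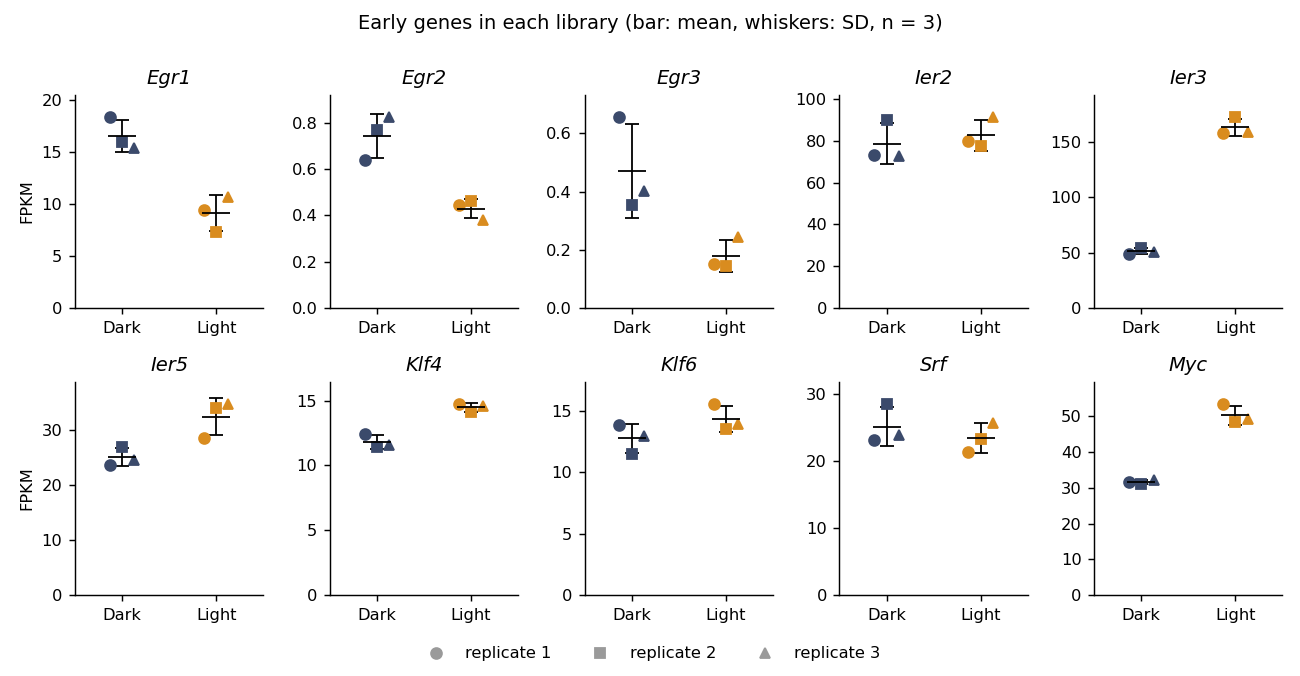
FPKM of each early gene (vertical axes, linear, from 0) in the 3 Dark and 3 Light libraries, with the mean as a bar and the SD as whiskers (n = 3); marker shapes give the replicate number. The groups do not overlap for Ier3, Myc, Ier5 and Klf4, which lie higher in Light, or for Egr1, Egr2 and Egr3, which lie lower. Each panel has its own axis, and Egr2 and Egr3 were too low to be tested. The values of Ier2, Klf6 and Srf overlap.

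Ier3 encodes an early response protein that has been tied to cell survival and to restraint of NF-kB signalling. The gene spans chromosome 17 from 35821684 to 35822923 (mm10, protein-coding). It stood at 48.7, 54.2 and 50.8 FPKM in Dark 1 to 3 and at 158, 172 and 159 FPKM in Light 1 to 3. All 3 Light libraries lay far above all 3 Dark libraries, with little scatter inside either group (coefficient of variation 5.39% in Dark and 4.86% in Light). The log2 change was 1.65 ± 0.07 (SE, n = 3 per group; limma adjusted p = 4.13e-05), the rank of 23 from the top among the 11068 genes. It ran from 1.32 to 1.71 over 15 alternative settings and was called in all of them. Its longest annotated transcript has 1131 bases, and 5.95% of the tested genes have a shorter one. Removing each library's trend with transcript length and GC content gave the 1.32.

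Myc, on chromosome 15 from 61985391 to 61990374, rose less but as evenly. Its values were 31.6, 31.2 and 32.1 FPKM in Dark 1 to 3 and 53.3, 48.4 and 49.1 FPKM in Light 1 to 3. The Dark values were close together (coefficient of variation 1.46%) and none reached the lowest Light value. The log2 change was 0.65 ± 0.06 (limma adjusted p = 0.000769), 0.42 to 0.71 over the 15 alternatives, all of which called it. Relative to the median of all genes, which moved from -0.01 to -0.13 when every library was scaled to the same total, Myc was higher under both scalings (0.51 under the second). The other MYC genes were near absent: Mycl averaged 0.134 ± 0.0842 FPKM in the Dark libraries and 0.241 ± 0.107 in those of Light (SD, n = 3), and Mycn was listed at 0 in every Dark library and averaged 0.0108 FPKM in Light.

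Egr1 went the other way. This zinc finger factor, the best known product of the ERK and SRF route, is encoded on chromosome 18 from 34859823 to 34864984. Egr1 measured 18.3, 15.9 and 15.4 FPKM in Dark 1 to 3 and 9.46, 7.26 and 10.7 FPKM in Light 1 to 3. Every Light library was below every Dark library, though the Light values scattered more (coefficient of variation 19.3% against 9.36% in Dark). The log2 change was -0.80 ± 0.14 (limma adjusted p = 0.00716), and 3.79% of tested genes had a change further down. Dark 1 was its highest and Light 2 its lowest library. Without these 2 libraries the change was -0.59, still called. Over all 15 alternatives it ran from -0.93 to -0.59 and was called in each.

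Egr2 and Egr3, relatives of Egr1 that bind the same kind of site, were present only in traces. Egr2 had 0.64, 0.768 and 0.823 FPKM in the Dark libraries and 0.447, 0.461 and 0.381 in the Light libraries. Egr3 had 0.655, 0.353 and 0.402 FPKM in Dark and 0.15, 0.145 and 0.244 in Light. Both lay lower in each Light library than in any Dark library, as Egr1 did. With means of 0.587 and 0.325 FPKM they were under the limit of 1 FPKM and took no part in the fit. When every line that was not 0 throughout was fitted, their log2 changes were -0.29 ± 0.08 and -0.31 ± 0.10, and limma's adjusted p-values were 0.0595 and 0.0852, so neither was called. The Light mean was 0.578 of the Dark mean for Egr2 and 0.382 for Egr3, with a coefficient of variation of 34.5% among the Dark values of Egr3. Egr4 was listed at 0 in all 6 libraries. Egr2 lies on chromosome 10 from 67535475 to 67542188 and Egr3 on chromosome 14 from 70077203 to 70082614.

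The 3 IER genes, named as immediate early responses but not all of 1 family, moved unequally. Ier5, an early gene linked to heat shock factor activity, lies on chromosome 1 from 155096361 to 155099636. Its FPKM were 23.7, 26.8 and 24.5 in Dark 1 to 3 and 28.5, 34.0 and 34.6 in Light 1 to 3, so the groups parted narrowly between Dark 2 and Light 1. The log2 change of Ier5 was 0.36 ± 0.09 (limma adjusted p = 0.0246). That call was lost without Dark 1 (0.0518), Dark 3 (0.0887), Light 2 (0.0956) or Light 3 (0.0981), without both Dark 1 and Light 2 (0.132), without the filter on low genes (0.0571) and with equal FPKM totals (0.22, adjusted p = 0.0659).

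Ier2, a nuclear early response protein of the same sequence family as Ier5, lies on chromosome 8 from 84661331 to 84662852. It was the most abundant of the 10 in Dark, at 73.3, 89.8 and 72.9 FPKM, and stood at 79.7, 77.4 and 91.2 FPKM in Light. The groups overlapped throughout, with a log2 change of 0.08 ± 0.10 (limma adjusted p = 0.579) and a 95% interval of -0.17 to 0.32. Its sign turned with quantile normalization and with equal FPKM totals (-0.07 each) and with the length and GC trend removed (-0.27). Ier3 was below Ier2 in every Dark library and above it in every Light library.

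Klf4 and Klf6, both GC-box binding factors, were close in level. Klf4, on chromosome 4 from 55527143 to 55532466, is known for roles in differentiation and in reprogramming to pluripotency. It had 12.4, 11.4 and 11.6 FPKM in Dark 1 to 3 and 14.7, 14.1 and 14.6 FPKM in Light 1 to 3, a small shift with no overlap. Its log2 change was 0.27 ± 0.07 (limma adjusted p = 0.0206). The call was lost without Dark 3 (0.0824), Light 1 (0.0530), Light 2 (0.0622) or Light 3 (0.0860), without both Dark 1 and Light 2 (0.0591), with equal FPKM totals (0.14, adjusted p = 0.158) and with the length and GC trend removed (0.09, adjusted p = 0.488).

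Klf6, on chromosome 13 from 5861482 to 5870394, had 13.8, 11.5 and 12.9 FPKM in Dark and 15.5, 13.5 and 13.9 FPKM in Light. Dark 1 reached into the Light range, and the log2 change of 0.16 ± 0.09 was not called (limma adjusted p = 0.189, 95% interval -0.05 to 0.37). Klf6 has the lowest GC content of the 10 (42.4% in its longest transcript), and with the length and GC trend removed its change was 0.42 (adjusted p = 0.0013).

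Srf, the factor through which many early genes are induced, lies on chromosome 17 from 46548329 to 46556175. It had 23.1, 28.4 and 23.8 FPKM in Dark and 21.3, 23.3 and 25.7 FPKM in Light, overlapping values with a log2 change of -0.10 ± 0.10 (limma adjusted p = 0.465, 95% interval -0.33 to 0.14). Srf is the most GC-rich of the 10 (64.4%, above 99.5% of tested genes), and with the length and GC trend removed it was called lower (-0.32, adjusted p = 0.0103). A lincRNA on the opposite strand, Gm26904, and a microRNA gene, Mir6976, lie within its span without touching its exons. No other gene of the 10 overlaps an annotated gene.

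**Figure D2:**
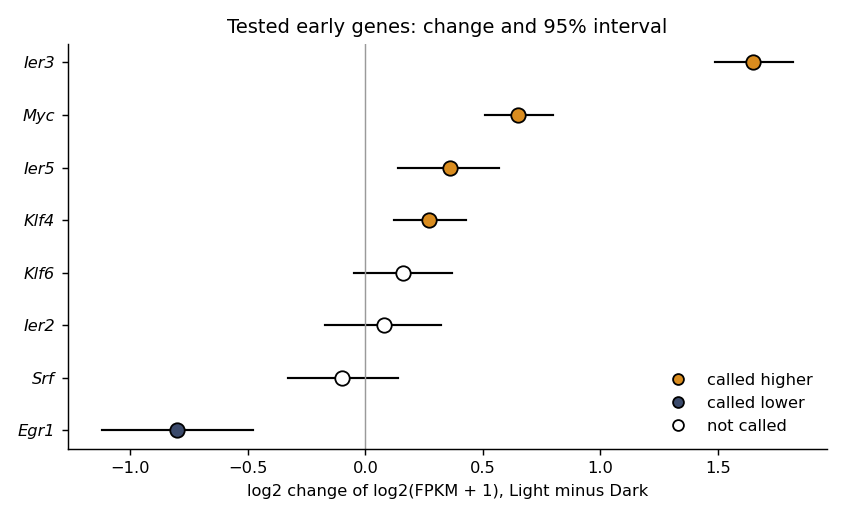
Log2 change, Light minus Dark, of the 8 tested early genes with 95% intervals from limma (horizontal axis, log2 of FPKM + 1; filled points were called). Ier3 at 1.65 and Egr1 at -0.80 mark the ends, and the intervals of Klf6, Ier2 and Srf include 0.

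Ordered by level, FPKM being per length, the Dark cells held Ier2 (78.7), Ier3 (51.2), Myc (31.6), Srf (25.1), Ier5 (25), Egr1 (16.5), Klf6 (12.7), Klf4 (11.8), Egr2 (0.744) and Egr3 (0.470 FPKM, means of 3). The ranges of Srf and Ier5, of Klf6 and Klf4 and of Egr2 and Egr3 overlapped, and those of the other neighbours did not. In Light the order became Ier3 (163), Ier2 (82.8), Myc (50.3), Ier5 (32.4), Srf (23.4), Klf4 (14.5), Klf6 (14.3), Egr1 (9.16), Egr2 (0.430) and Egr3 (0.180). Egr1 thus passed from above both KLF genes to below them. In Light the ranges of Klf4 and Klf6 overlapped, and the other neighbours stood apart.

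Whether relatives changed unequally was examined within libraries, as the log2 difference of 2 genes, in 7 pairs. With 3 libraries per group an exact 2-sided permutation test cannot give a p below 0.1, so no pair could pass 0.05. Ier3 gained 1.30 ± 0.08 (SE) on Ier5 and Ier2 lost 1.58 ± 0.12 to Ier3, both with separate groups (exact permutation p = 0.1, 0.14 adjusted over the 7 pairs). Ier2 also lost 0.28 ± 0.10 to Ier5, with the same p-values. Klf4 and Klf6 differed by 0.11 ± 0.06 (exact permutation p = 0.2, adjusted 0.233), which turned to -0.33 with the length and GC trend removed. Egr1 lost 0.51 ± 0.21 to Egr2 and 0.49 ± 0.13 to Egr3 on the log2(FPKM + 1) scale. These 2 values rest on the pseudocount of 1, which compresses low genes: with 0.1 they were -0.19 and 0.15. The direction of the difference between Egr2 and Egr3 (0.03 ± 0.15) turned with the libraries kept.

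Beyond the 10, the immediate partners were described from lists. Of the ternary complex factors that sit with SRF on DNA, Elk3 fell by 0.37 on the log2 scale (17.9 ± 0.992 to 13.6 ± 0.649 FPKM, SD, n = 3; limma adjusted p = 0.0104), a call lost without Dark 3 (0.0524) and without both Dark 1 and Light 2 (0.0709). Elk1 had a change of 0.21 and Elk4 of -0.30, not called. The actin-regulated SRF coactivators Mkl1 and Mkl2 had -0.19 (not called) and -0.39 (adjusted p = 0.0214). The call of Mkl2 was lost without Dark 3 (0.0835), Light 2 (0.0775) or Light 3 (0.0794), with quantile normalization (0.0853), with the length and GC trend removed (0.126) and without both Dark 1 and Light 2 (0.102). Of all genes 19.2% were higher and 16.4% lower, with a median of -0.01. Of the 5 SRF partners measured, 0 were higher and 2 lower, with a median of -0.30. With equal FPKM totals 0 were higher and 4 lower, with a median of -0.43, where the median of all genes was -0.13. Without Dark 3, and without both Dark 1 and Light 2, 0 of the 5 were called, where 1277 and 1427 of all 11068 genes were. Without Light 2 or without Light 3 there was 1 call (1313 and 1228 of all genes). Without Dark 2 there were 1 higher and 3 lower (2990 and 2884 of all genes). Myocd was listed at 0.

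The EGR corepressors Nab1 and Nab2 had changes of -0.52 ± 0.23 and -0.14 ± 0.07 and were not called (limma adjusted p = 0.106 and 0.145). EGR proteins induce Nab2 as a brake on themselves. Ier5l, the relative of Ier5, had -0.20 and was not called. Nab1 was called lower without Dark 2 (-0.72, adjusted p = 0.0248), Ier5l without Dark 1 (-0.34, 0.0409) and without both Dark 1 and Light 2 (-0.41, 0.0383), and Nab2 with equal FPKM totals (-0.27, 0.0114). With the length and GC trend removed, 2 of the 3 were called lower, Nab2 (-0.37) and Ier5l (-0.41). Among 12 measured genes listed as EGR1 targets 1 was higher and 3 were lower (19.2% and 16.4% of all genes), with a median of -0.07. Fn1, which encodes the matrix protein fibronectin, fell from 729 ± 39.3 to 409 ± 17.4 FPKM (log2 change -0.83 ± 0.08, limma adjusted p = 0.000649), and Plau, the gene of urokinase, fell by 0.60. The riser was Pdgfa, a growth factor chain, at 0.39, called neither without Dark 1 (0.0543), Dark 3 (0.111), Light 2 (0.104) or Light 3 (0.0888) nor without both Dark 1 and Light 2 (0.134). It also lost the call without the filter on low values (0.0661), with equal FPKM totals (0.26, 0.0764) and with the length and GC trend removed (0.16, 0.178). The list had 0 higher and 2 lower without Dark 1, Dark 3, Light 2 or Light 3, and with no filter on low values. It had 0 and 5 with equal FPKM totals (1212 and 2902 of all genes) and 0 and 6 with the length and GC trend removed (1870 and 2077). It had 1 and 5 with quantile normalization (2062 and 1727) and 2 and 3 without Dark 2 (2990 and 2884).

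Among other KLF and SP genes 12 of 24 could be tested, with 5 higher and 3 lower (19.2% and 16.4% of all genes) and a median of -0.01. Among the 7 with a mean of at least 5 FPKM, fitted with that filter, 1 was higher and 4 were lower, with a median of -0.46. Klf3, a repressor of the family, fell by 0.70 and Klf10, a TGF-beta induced early gene, fell by 0.46, and both calls held in all 15 alternatives. Klf11 averaged 0.540 ± 0.0809 FPKM in the Dark libraries and 1.52 ± 0.0574 in the Light libraries, so it reached the mean of 1 FPKM only through its Light values. In the fit with no filter on low values its log2 change was 0.71 (limma adjusted p = 0.0061). Klf5 (0.50), Klf9 (0.55), Klf13 (0.40), Klf2 (0.41) and Sp1 (-0.48) were called, but each lost its call without Dark 3 (adjusted p = 0.0517, 0.0734, 0.0840, 0.112 and 0.0772). Klf9, Klf13, Klf2 and Sp1 also lost it without Light 3 (0.0981, 0.0530, 0.124 and 0.0686), Klf13, Klf2 and Sp1 without Light 2 (0.0792, 0.124 and 0.0631), Klf9 and Klf13 without Light 1 (0.0646 and 0.0557), and Klf2 without Dark 1 (0.0720). With the length and GC trend removed Sp1 stood at -0.05 and Klf2 at 0.10. Klf9, Klf2 and Sp1 lost it without the filter on low values (0.0567, 0.0786 and 0.0505), and Klf9, Klf13 and Klf2 with equal FPKM totals (0.0584, 0.0552 and 0.0854). Klf5, Klf13, Klf2 and Sp1 lost it without both Dark 1 and Light 2 (0.0722, 0.0819, 0.164 and 0.0822). Klf7 (-0.31), Klf16 (0.10) and Sp2 (-0.12) were not called. Sp3 had -0.87 ± 0.29 and was not called (limma adjusted p = 0.0511). It was called lower in 8 of the 15 alternatives, among them equal FPKM totals (-1.01, 0.0460), the trend removed (-0.52, 0.0396), without Dark 2 (0.0196) and without Light 1 (0.0391), while without both Dark 1 and Light 2 it stood at -0.38 (0.136). With equal FPKM totals the list had 2 higher and 5 lower (1212 and 2902 of all genes). It had 1 and 2 without Dark 3 (744 and 533) and 3 and 2 without Light 2 (749 and 564). It had 2 and 2 without Light 3 (693 and 535), and 3 and 4 without Light 1 (1816 and 1653).

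Around Myc, the genes of its dimerisation network were described next. Max, the obligate partner of MYC, had a Dark mean of 22.1 ± 0.810 FPKM and a Light mean of 22.9 ± 0.767. Its log2 change was 0.05 ± 0.06 (limma adjusted p = 0.559). Of 10 network genes tested 2 were higher, 1 was lower and 7 were not called, with a median of 0.00. Over all genes 35.6% were called. With equal FPKM totals the network had 2 higher and 3 lower, with a median of -0.12, where the median of all genes was -0.13. Mnt, a MAX-binding repressor, rose by 0.38 and Zbtb17, which encodes the MYC-binding factor MIZ1, by 0.41. Mga, a giant MAX-binding repressor, fell by 0.74. Zbtb17 lost its call without Dark 3 (0.0523), Mnt without Dark 3 (0.0699), Light 2 (0.0683) or Light 3 (0.0706), and Mga without Dark 1 (0.0504), Dark 3 (0.0965), Light 2 (0.125) or Light 3 (0.103) and without the filter on low values (0.0835). Without both Dark 1 and Light 2 all 3 calls were lost (0.0568, 0.0982 and 0.114). With the length and GC trend removed Mga stood at -0.08. Without Dark 3, and without both Dark 1 and Light 2, the network had 0 called in either direction (1277 and 1427 of all 11068 genes were called). Without Light 2 or without Light 3 it had 1 higher and 0 lower (1313 and 1228 of all genes called). The others, Mxd1, Mxd3, Mxd4, Mxi1, Mlx and Mlxip, had changes of -0.23 to 0.26.

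Of 30 genes listed as activated by MYC 13 were higher, 0 lower and 17 not called, with a median of 0.17. For all genes tested the shares were 19.2% higher and 16.4% lower. Odc1, the first enzyme of polyamine synthesis, rose from 78.6 ± 5.76 to 140 ± 14.1 FPKM (log2 change 0.82 ± 0.09, limma adjusted p = 0.00156). Apex1, a DNA repair endonuclease gene, rose by 0.53 and Nop16, of ribosome assembly, by 0.50. The call of Nop16 was lost without Dark 3 (0.0518), Light 2 (0.0518) or Light 3 (0.0545), and without both Dark 1 and Light 2 (0.0511). The number higher was 6 without Dark 3 (744 of all genes), 5 without Light 2 (749), 5 without Light 3 (693) and 5 without both Dark 1 and Light 2 (785). It was 16 with 5 lower without Dark 2 (2990 and 2884 of all genes). Quantile normalization gave 8 with 1 lower (2062 and 1727). Equal FPKM totals gave 7 (1212), with a median of 0.03 beside -0.13 for all genes. Of 10 genes listed as repressed by MYC 3 were higher and 3 lower, and 3 and 5 with equal FPKM totals or with the length and GC trend removed. Cdkn1a, the cell cycle inhibitor p21, and Ndrg1 rose by 2.27 and 1.70, and Gadd45a by 0.77. Thbs1, of the matrix, fell by 2.16, Gas1 by 0.66 and Itgb1 by 0.45. Itgb1 lost its call without Dark 3 (0.0741), Light 2 (0.0788) or Light 3 (0.0653), and without both Dark 1 and Light 2 (0.0812).

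Other immediate early genes also split. Of 34 tested 8 were higher and 11 lower (19.2% and 16.4% of all genes), with a median of 0.09. The largest rises were those of Ppp1r15a (1.33), which encodes the phosphatase subunit GADD34, Plaur (1.24), the urokinase receptor gene, and Maff (1.07), a small MAF factor. The largest falls were those of Ctgf (-1.57), Zfp36l1 (-1.19), whose product binds AU-rich elements, and Id1 (-0.83). All 6 were called in each of the 15 alternatives. With median centring the list had 11 higher and 8 lower (2256 and 1639 of all genes), and with equal FPKM totals 6 higher and 12 lower (1212 and 2902). Without Dark 3 the counts were 6 and 7, without Light 2 they were 7 and 7, and without Light 3 they were 6 and 8.

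Among AP-1 genes, which share this early response, Fos fell from 7.62 ± 1.46 to 4.11 ± 1.45 FPKM (log2 change -0.78 ± 0.22, limma adjusted p = 0.0336), while Atf3 (1.34), Fosl1 (0.98) and Batf3 (0.88) rose. Of the 8 tested, 6 were higher and 1 lower (19.2% and 16.4% of all genes). Fos lost its call without Dark 1 (0.0700), Dark 3 (0.0689), Light 2 (0.0842) or Light 3 (0.0929), and Batf3 without Dark 3 (0.0740), Light 2 (0.0792) or Light 3 (0.0647). Both lost it without the filter on low values (0.0798 and 0.0532) and without both Dark 1 and Light 2 (0.0921 and 0.0538). The counts were 4 higher and 0 lower in each of these fits except that without Dark 1 (6 and 0), and 6 and 2 with equal FPKM totals.

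Genes that report ERK output were likewise divided, 5 of 13 higher and 2 lower (19.2% and 16.4% of all genes) with a median of 0.13. Dusp4, a nuclear MAP kinase phosphatase gene, rose by 2.19 and Etv4, an ETS factor gene, by 1.51, beside Fosl1. Spry2 and Phlda1 each fell by 0.37. Phlda1 lost its call without Dark 3 (0.0551) or Light 3 (0.0580), and Spry2 without Dark 3 (0.0934), Light 2 (0.0822) or Light 3 (0.0671), with quantile normalization (0.129), and without both Dark 1 and Light 2 (0.115). The number lower was 0 without Dark 3 or without Light 3, 1 without Light 2, and 3 without Dark 2 or without Light 1. With equal FPKM totals 4 were higher and 3 lower (1212 and 2902 of all genes), and with the length and GC trend removed 4 and 4 (1870 and 2077).

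**Figure D3:**
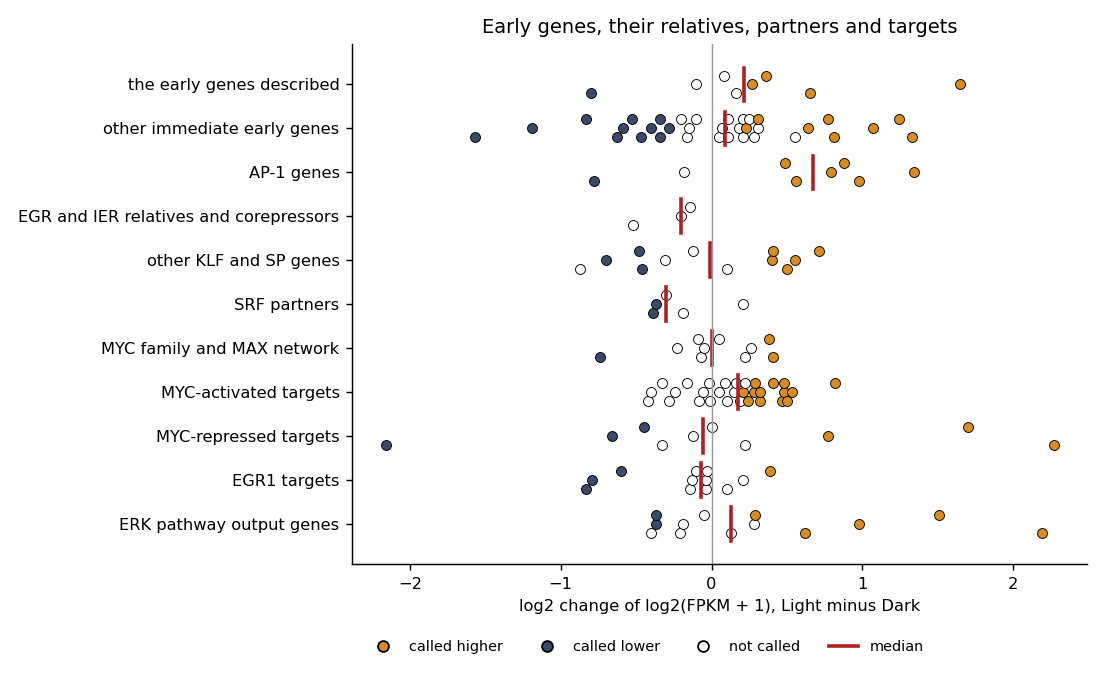
Log2 change, Light minus Dark, of every tested gene of each list (horizontal axis, log2 of FPKM + 1; 1 point per gene, filled where called) with the list's median as a red line. The early genes spread from -0.80 to 1.65, AP-1 genes have a median of 0.68, and SRF partners one of -0.30.

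The 10 early genes differed in the AU-rich motifs of their 3' untranslated regions. The pentamer ATTTA, the core of AU-rich decay elements, was counted in the longest annotated 3' untranslated region of each. Ier3 carried 5 in 613 bases, which is 8.16 per kilobase, a density that 1.04% of the 10609 tested genes with such a region reach. Myc followed with 2 in 466 bases (4.29 per kilobase, reached by 7.17%). These are also the 2 genes of the 10 with the largest rises, but both regions are short beside the median of 1368 bases. By count Egr3 and Klf6 carried more, 7 each. Myc had the same 2 as Egr1, which fell, as Ier5 and as the median of tested genes. Egr3 had 2.65, Egr2 2.50 and Klf6 2.25 per kilobase, above the median of 1.23 and reached by 21.5%, 23.9% and 27.9% of tested genes. Nearer that median were Egr1 with 1.64, Srf with 1.33, Klf4 with 1.02 and Ier5 with 0.933. Ier2 had 0, as have 28.9% of tested genes. With 10 genes this is a description of the annotation and no test was made.

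The genes most like each early gene were sought by the root mean square difference between log2(FPKM + 1) profiles over the 6 libraries, each centred on its mean, among 8213 named genes whose mean reached 5 FPKM. For Ier3 they were Ndrg1 (0.033) and Nqo1 (0.052), which rose by 1.70 and 1.73. For Myc they were Nr1h4 (0.044) and Cyb5a (0.046). Egr1 had the most distant nearest genes, Farp2 (0.077) and Apbb2 (0.091), both lower in Light by 0.76 and 0.75. The profile of Klf4 lay nearest those of Aldh3a2 (0.017) and Emp1 (0.018), and that of Ier5 nearest Ttc39c (0.026) and Rcor2 (0.033). Klf6 was nearest Lmbrd1 (0.019) and Slc25a37 (0.020), Srf nearest Pradc1 (0.015) and H2afx (0.028), and Ier2 nearest Dtnb (0.024). Profiles of 6 libraries from the same 2 groups share the difference between the groups, so small distances are common.

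**Figure D4:**
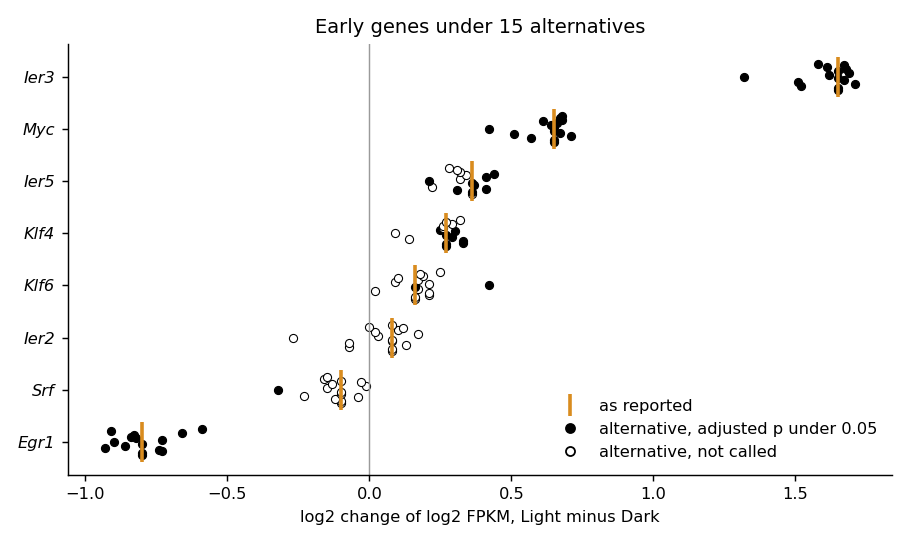
Log2 change, Light minus Dark, of the 8 tested early genes as reported (orange bars) and under 15 alternatives (points, filled where the adjusted p was under 0.05; horizontal axis in log2 FPKM). Ier3, Myc and Egr1 were called in all 15, Ier5 and Klf4 in 8 each, and Ier2 crosses 0.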

How the data were processed

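Messenger RNA of 661W cells was sequenced in 6 libraries, with group and number taken from each title. Total RNA was extracted with TRIzol, per the labels' protocols. HISAT2 and mm10 are named, with no version, per the submitters' processing notes. The sources used here do not name the program behind the values, its annotation, its strand setting or the depth. Per the file headers, the deposited values are FPKM for each gene. They come as 1 series table and 6 sample tables, equal in all 24879 lines. Low values gave no whole-read steps in ratios to Dark 1: among 1407 low lines no ratio of another library to it recurred in more than 0.426%.

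Tests ran over the whole table on log2(FPKM + 1) for lines whose mean reached 1 FPKM, with group as the only term. They used limma 3.58.1 (R 4.3.3), its robust eBayes with a trend, 2-sided p-values and Benjamini-Hochberg adjustment. The plan for counts was not used. The procedure was tested on simulated data. Pair differences used exact permutation tests. GENCODE release M21 on mm10 gave coordinates, lengths and GC content for 22022 identifiers, and RefSeq gave the promoters. Members, lists and tests were chosen with earlier results of these data known. The text names all 10 members, the relatives and partners with a mean of at least 1 FPKM, and the 3 largest called changes in each direction of longer lists. Nqo1 and the other near profiles follow the likeness rule. A few genes that these rules pick are not reported here. Alternatives were low-value filters, quantile normalization, median centring, equal FPKM totals, a pseudocount of 0.1, a replicate block, removal of a loess trend (span 0.5) with length and GC content among annotated genes, each library left out and, chosen after seeing the data, Dark 1 and Light 2 left out.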

Additional observations from a re-analysis of the deposited data

How the results depend on the processing

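All 15 alternatives called Ier3 and Myc higher and Egr1 lower, and of 40 named genes called in the lists 22 were called in every alternative that tested them and 0 changed sign. The count of all genes called, 3938, was 2606 without the filter on low values, 6690 with the replicate block, 1427 without Dark 1 and Light 2 together, and 1228 to 5874 with 1 library left out. The count of early genes called higher, 4, was 2 with equal FPKM totals, 2 without Dark 1 and Light 2 together, and 2 to 4 with 1 library left out. The count called lower, 1, was 2 with the length and GC trend removed, Srf joining Egr1, and stayed 1 with each library left out. The split of all calls depended on scaling, with 2128 higher and 1810 lower as reported and 1212 and 2902 with equal FPKM totals. Fits with 1 library left out rest on fewer samples.

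Signs turned for genes that were not called: Ier2 (-0.07 with quantile normalization and with equal FPKM totals, -0.27 with the trend removed), Klf7 (0.05 with the trend removed), Klf16 (-0.03 with equal totals, -0.12 with the trend removed, -0.02 without Dark 1 and Light 2), Max (-0.09 with equal totals, -0.13 with the trend removed), Mxd1 (0.12 with quantile normalization, 0.00 with median centring), and Mxd3 (-0.18 to 0.03) and Mxd4 (-0.12 to 0.01) with 1 library left out, turning without Dark 2. Among the pairs, Egr1 minus Egr3 was 0.15 with a pseudocount of 0.1, Klf4 minus Klf6 -0.33 with the trend removed, and Egr2 minus Egr3 ran from -0.10 to 0.10 with 1 library left out (-0.10 without Dark 1, -0.01 without Light 2) and was -0.14 without both. Their cause was not tested.

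Deviations from the group mean, compared between same-numbered libraries, gave a correlation of 0.69 for number 1, 0.64 for 2 and -0.09 for 3. Dark 1 with Light 2 gave -0.67, and Dark 2 with Light 1 gave -0.68. The deviations within a group sum to 0, so these values depend on one another. Dark 3 (-20.9) and Light 3 (20.9) lay between the others of their group on the first principal component. The value for number 3 therefore cannot decide whether the numbers pair. The labels do not say whether the numbers pair the samples, and this was not tested. With the replicate block 5 early genes were called higher, Klf6 joining at an adjusted p of 0.0497. Over all 11068 genes the block called 3287 higher and 3403 lower, more than the 3938 called as reported. The block also called all 3 of Nab1, Nab2 and Ier5l lower, SRF partners 1 higher and 4 lower, and the MYC network 4 higher and 2 lower. Low values such as Egr2 and Egr3 cannot be given a counting error, since depth is unknown.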
